A study of Mus musculus with 6 samples.

Results

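Levels and transcript makeup of 10 genes of cold-inducible RNA binding proteins, splicing kinases and splicing factors were followed in the epididymal white adipose tissue (the fat pad beside the epididymis) of male mice. The genes were taken by symbol from the 23492 with a read, namely Cirbp, Rbm3, Clk1, Clk4, Srsf2, Srsf3, Srsf5, Srsf7, Tra2a and Tra2b. Of their 95 annotated transcripts, 79 had at least 1 read, and between 58 and 65 were seen in any one mouse. All mice were wild type C57BL/6N, an inbred strain, 20 weeks old. The 3 controls (ctrl 5, ctrl 6 and ctrl 10) came from base housing at 22 to 24 °C with a 12 h light cycle, and the 3 cold mice (cold 7, cold 12 and cold 16) had spent 24 h alone at 4 °C. Whether the controls were housed alone is not given in the labels, so cold and single housing cannot be told apart. Poly-A RNA was read as direct cDNA on a nanopore device, which reads long cDNA molecules without amplification and so can show which exons and introns lie in one molecule. The comparison asks whether these genes, or the makeup of their transcripts, differed after a day in the cold.

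Cirbp and Rbm3 are RNA binding proteins best known for rising in cooled cells. SR proteins such as Srsf2, Srsf3, Srsf5 and Srsf7, and their relatives Tra2a and Tra2b, bind exons and recruit the splicing machinery, and the kinases Clk1 and Clk4 phosphorylate their serine-arginine repeats. Many of these genes control their own output through unproductive splicing. In one form a poison exon, which carries an early stop codon, is included and the mRNA is sent to nonsense-mediated decay (NMD). In another, introns are kept and the transcript often makes no full protein. Splicing of Clk1 is known to respond to temperature and to the activity of the kinase itself, through skipping of exon 4 and keeping of the introns around it. Transcripts are grouped here by their GENCODE type into coding, NMD, retained intron and all other.

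None of the 10 genes passed the test for a change in level after a day in the cold, and a 2-fold change lay outside the 95% interval of every one of the 10. The genes differed widely from each other in transcript makeup. Clk1 was mostly read as transcripts with kept introns (77.8% of its reads), Tra2a mostly as a poison exon transcript (54.0%), and Srsf5 nearly as often with a kept intron (47.8%) as coding (51.3%). At the other end, Rbm3 had the lowest retained intron share (0.532%), and Srsf5 had no NMD read.

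The poison exons are shown because NMD reads of their genes turn on them. Each is printed in the direction of transcription from the 5′ end of the exon to the in-frame stop codon, which is in capitals, as read from the GENCODE M21 transcript sequences.
Tra2a-202 poison exon: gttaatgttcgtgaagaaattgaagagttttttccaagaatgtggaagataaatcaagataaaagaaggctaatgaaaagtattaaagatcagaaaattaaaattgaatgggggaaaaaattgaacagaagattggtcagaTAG
Tra2b-206 poison exon: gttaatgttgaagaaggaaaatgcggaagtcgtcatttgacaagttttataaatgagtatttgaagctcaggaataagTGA
Rbm3-207 poison exon: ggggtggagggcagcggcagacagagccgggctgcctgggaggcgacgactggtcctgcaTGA
Srsf3-201 poison exon: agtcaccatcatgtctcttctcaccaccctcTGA
Srsf7-203 poison exon: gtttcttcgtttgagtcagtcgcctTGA
The Tra2a exon is exon 2 of 9 (306 nt, GRCm38 chromosome 6, 49252803 to 49253108, minus strand) and the Tra2b exon is exon 2 of 10 (276 nt, chromosome 16, 22258986 to 22259261, minus strand). Both printed stretches open with the same 9 bases, both follow 12 codons of reading frame, and the whole exons are 56.6% identical over their alignment. The Rbm3 exon is exon 4 of 8 (271 nt, chromosome X, 8144175 to 8144445, minus strand). In Srsf3 the exon is the 4 of 7 (456 nt, chromosome 17, 29039454 to 29039909, plus strand), and in Srsf7 the 4 of 9 (460 nt, chromosome 17, 80204622 to 80205081, minus strand). The Srsf3 and Srsf7 exons are 39.1% identical. In these 5 transcripts the last exon junction lies between 488 and 1015 nt after the stop codon, as in typical NMD substrates.

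Clk1 and Clk4 share an alternative exon 4. It is shown because transcripts that skip it or keep its flanking introns were assigned most Clk1 reads. Whole exons are printed, with no part singled out.
Clk1-201 exon 4: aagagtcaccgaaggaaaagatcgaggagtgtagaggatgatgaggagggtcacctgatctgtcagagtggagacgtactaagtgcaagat
Clk4-201 exon 4: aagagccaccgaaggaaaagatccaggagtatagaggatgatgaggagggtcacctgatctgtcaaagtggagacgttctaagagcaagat
Both are 91 nt long, a length that is no multiple of 3, and 85 of 91 bases are identical (93.4%). The Clk1 exon lies on chromosome 1, 58420121 to 58420211, minus strand, and the Clk4 exon on chromosome 11, 51273078 to 51273168, plus strand. In Clk1 it is flanked by intron 3 (871 nt) and intron 4 (387 nt), and in Clk4 by introns of 1055 and 391 nt.

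**Figure D1:**
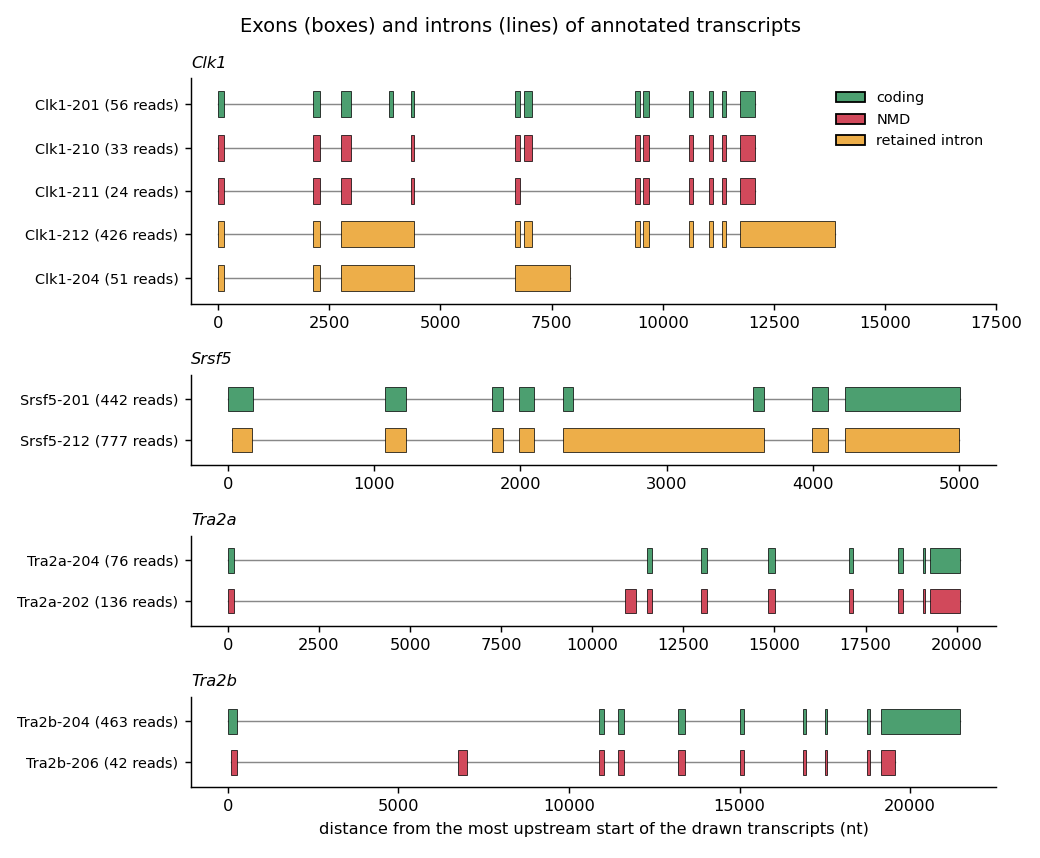
Exons (boxes) and introns (lines) of annotated Clk1, Srsf5, Tra2a and Tra2b transcripts, by distance from the most upstream start in nt, with total reads of the 6 mice and boxes coloured by transcript class. Clk1-212 (426 reads) joins exons 3 to 5 of Clk1-201 into 1 box, and Srsf5-212 (777 reads) keeps intron 5.

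The libraries held 726283 to 1341592 reads, so that 1 read was worth 0.745 to 1.38 CPM (reads scaled by the total of the library), and 8943 reads fell on the 10 genes. Cold 16 stood apart from the other mice for this group. It had the lowest level of the 6 mice for 9 of the 10 genes, all but Cirbp, whereas it was the lowest for 22.2% of all tested genes on the same normalised scale (TMM, edgeR's scaling between libraries). Summed CPM of the 10 genes was 1137 in cold 16 and 1416 to 1577 in the other 5. Outside the group, cold 16 also had the highest share of retained intron reads (4.36%, against 3.22% to 3.60%) and of NMD reads (2.08%, against 1.70% to 1.78%). Adipocyte markers summed to 47968 to 52941 CPM in controls and 48541 to 51994 CPM in cold mice, with Adipoq between 2669 and 3670 CPM. The brown and beige fat markers summed to 18.1 to 22.9 CPM in controls and 22.99 to 31.03 CPM in the cold. Of these, cold 16 lay less than 1 read above the highest control. Only 1 of the brown and beige markers was tested, and it was not called, with 2 reads of Ucp1 in all. Markers of simple epithelium, such as Epcam, summed to 13.4 to 33.1 CPM in controls and 93.8 to 183 CPM in the cold, with 4 of 4 tested markers called higher. Epididymal duct markers reached 324 CPM in cold 7 alone (0 to 5.11 CPM elsewhere), and sperm markers 117 and 139 CPM in cold 7 and cold 12 (1.07 to 12.7 CPM elsewhere). The part of these cells and of cold 16 in the results was not tested, apart from the values without cold 16 given below. In whole tissue, fewer cells of a type and less RNA per cell cannot be told apart.

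At the gene level, 0 of the 10 genes passed an adjusted p of 0.05 (edgeR quasi-likelihood test, Benjamini-Hochberg over all genes), where 64 of 9772 tested genes did (0.655%). At an unadjusted p under 0.05 the count was also 0, against 8.43% of all tested genes, and DESeq2 and limma-voom called 0 as well. No gene had groups that did not overlap, against 13.7% of tested genes. All 10 passed the filter on low counts. Fitted log2 fold changes, cold minus ctrl, were positive for 3 and negative for 7, with a median of -0.070 beside 0.0057 over all tested genes. Fold bounds of the 95% intervals ran from 0.670 (Tra2a) to 1.62 (Cirbp).

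**Figure D2:**
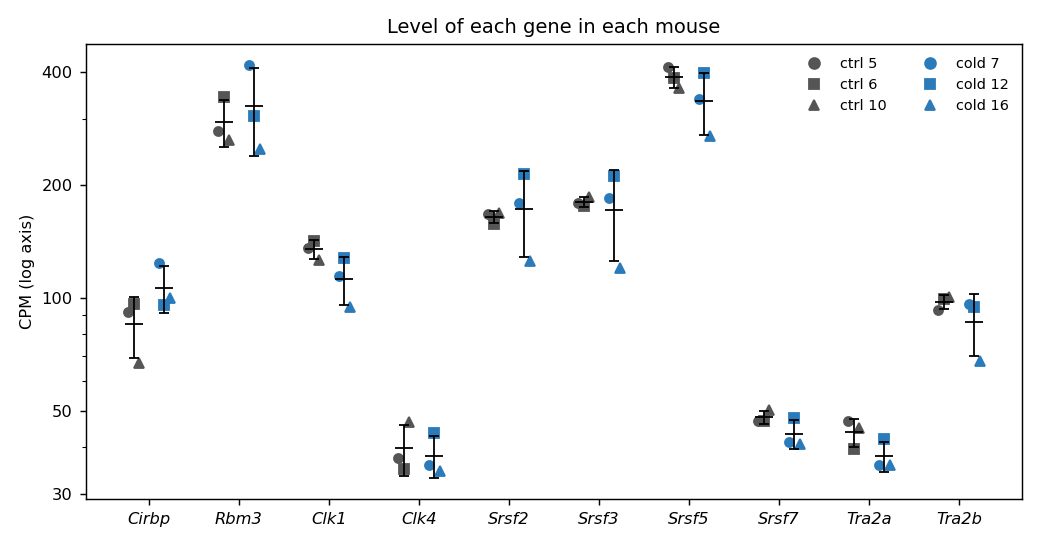
CPM (log axis) of each gene in each mouse (symbols), with group mean and SD (black, n = 3). The groups overlap for all 10 genes, and cold 16 (blue triangle) is the lowest symbol for every gene but Cirbp.

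Cirbp (ENSMUSG00000045193.13, chromosome 10, 80165985 to 80172786) had the smallest p of the 10. It had 91.7, 96.3 and 67.1 CPM in ctrl 5, 6 and 10 and 124, 95.6 and 99.6 CPM in cold 7, 12 and 16. Cold 7 was the highest and ctrl 10 the lowest of the 6, and cold 12 fell within the control range. The means were 85.0 ± 15.7 and 106 ± 15.4 CPM (SD, n = 3), a fold of 1.26 with a 95% interval of 0.985 to 1.62 (edgeR unadjusted p = 0.0637, adjusted p = 0.639). One coding transcript, Cirbp-202, took 92.7% of its 573 reads, the NMD transcript Cirbp-201 took 4.89% (28 reads), and the retained intron transcript Cirbp-205 had 11 reads.

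Rbm3 (ENSMUSG00000031167.16, chromosome X, 8138975 to 8145880) had 277, 343 and 264 CPM in the controls and 418, 305 and 249 CPM in the cold. The highest and the lowest of the 6 mice, cold 7 and cold 16, were both cold mice. The fold was 1.12 (95% interval 0.875 to 1.42, edgeR adjusted p = 0.896), and without cold 7 the log2 fold change went from 0.16 to -0.076. Its poison exon, printed above, was read in 14 of 1009 control reads (1.39%, exact 95% interval 0.761% to 2.32%) and 11 of 849 cold reads (1.30%, 0.649% to 2.31%), counting transcripts that settle the exon. The groups overlapped. Among coding transcripts Rbm3-206 was the main one (49.3% of reads), ahead of Rbm3-202 (21.7%) and Rbm3-203 (20.5%). An exon 6 that is shorter by 3 bases, from a later acceptor, made up 70.8%, 72.8% and 72.0% of the control reads that tell the acceptors apart and 70.03%, 72.4% and 82.8% of the cold ones, so that only cold 16 lay outside the control range on the high side.

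Clk1 (ENSMUSG00000026034.17, chromosome 1, 58410189 to 58424066) had 135, 142 and 126 CPM in the controls and 114, 127 and 94.5 CPM in the cold. Cold 12 lay within the control range, and the other cold mice below it (fold 0.855, 95% interval 0.689 to 1.06, edgeR adjusted p = 0.772). Of its 769 reads only 56 (7.28%, exact 95% interval 5.55% to 9.35%) were coding. Of 7780 genes with at least 100 reads, 26 had a higher retained intron share than Clk1, and the median gene had 0.123%. The main transcript was Clk1-212, with introns 3 and 4 and exon 4 in 1 stretch (426 reads), followed by Clk1-202 (118 reads) and Clk1-204, which also keeps intron 6 (51 reads). Clk1-212 also has a longer last exon than the coding and NMD transcripts of Clk1, so reads of that end alone may be assigned to it. The Clk1 shares that follow carry this limit.

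The retained intron share of Clk1 was 82.7%, 82.6% and 76.9% in the controls and 72.3%, 76.3% and 67.6% in the cold. Every cold mouse lay below every control, with ctrl 10 and cold 12 less than 1 percentage point apart. Its NMD share was 7.87%, 3.68% and 6.29% in the controls and 8.43%, 9.87% and 12.2% in the cold, with every cold mouse above every control. Ctrl 5 (10 of 127 reads) and cold 7 (7 of 83 reads) lay closest, with a gap smaller than the worth of 1 read in cold 7. NMD reads of Clk1 come from Clk1-210, which skips exon 4 (33 reads, overlapping groups), and Clk1-211, which skips exons 4 and 7. Clk1-211 had 3, 1 and 2 reads in the controls and 5, 8 and 5 in the cold, counts too low to enter the test. Limma's diffSplice, an alternative added after seeing the data, gave an unadjusted p of 0.022 for the retained intron class and 0.0353 for the NMD class (adjusted p = 0.984 for both), and edgeR's diffSpliceDGE gave 0.45 and 0.0531.

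Among transcripts that settle introns 3 and 4 of Clk1, those keeping both took 84.3%, 87.2% and 81.7% of control reads. In the cold they took 78.3%, 76.3% and 67.9%. For reads assigned to Clk1-212, kept introns and use of its longer last exon cannot be told apart. The groups did not overlap. Pooled, these were 305 of 360 control reads (84.7%, exact 95% interval 80.6% to 88.3%) and 172 of 230 cold reads (74.8%, 68.7% to 80.3%), intervals that cover counting error only and not the spread between mice. Without cold 16 the difference in mean share was -7.08 percentage points instead of -10.2. It was -6.42 in the X1 files alone and -18.9 in the X2 files alone. Of the spliced reads, 26 of 55 skipped exon 4 in controls and 31 of 58 in the cold, with overlapping groups. The intron-keeping transcript Clk1-204 had 11, 15 and 12 reads in the controls and 3, 4 and 6 in the cold, a log2 fold change of -1.16 ± 0.45 (SE, edgeR unadjusted p = 0.0188, adjusted p = 0.577).

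Clk4 (ENSMUSG00000020385.16, chromosome 11, 51261730 to 51281766), the closest relative of Clk1 in the group, was read mostly as transcripts labelled coding (73.3% of 240 reads). It had 37.3, 35.1 and 46.8 CPM in the controls and 35.8, 43.6 and 34.5 CPM in the cold, with the groups overlapping widely (fold 0.988, 95% interval 0.726 to 1.34, edgeR adjusted p = 0.992). Its retained intron transcript Clk4-213 keeps introns 3, 4, 7 and 8 and had 55 reads. The coding-labelled Clk4-203, which lacks exon 4 and also exon 2, took 57.1%, 57.7% and 67.9% of the reads that settle exon 4 in the controls and 25%, 42.3% and 70% in the cold. Cold 16 was the highest and cold 7 the lowest of the 6, on 16 to 28 reads a mouse. Clk4-203 gave 75 of the Clk4 reads labelled coding, whereas Clk1-210, which also skips exon 4, is labelled NMD. The coding shares of Clk1 and Clk4 are therefore not like measures.

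Among the SR proteins, Srsf5 (ENSMUSG00000021134.17, chromosome 12, 80945504 to 80950507) had 413, 385 and 362 CPM in the controls and 339, 396 and 270 CPM in the cold (fold 0.887, 95% interval 0.722 to 1.09, edgeR adjusted p = 0.838). Cold 12 lay within the control range, and cold 7 and cold 16 below it. Intron 5 (1229 nt, chromosome 12, 80947866 to 80949094) was kept in 51.7%, 48.8% and 47.2% of control reads that settle it and 48.6%, 49.1% and 40.2% of cold reads. Only cold 16 lay outside the control range. Over the groups these were 641 of 1304 and 431 of 918 reads. Srsf5-212, which keeps that intron alone, was the most read transcript of the gene (777 reads), ahead of the coding Srsf5-201 (442 reads), while Srsf5-207 keeps introns 4 and 5 (202 reads) and Srsf5-209 keeps introns 2, 5 and 7 (93 reads). Srsf5 had no NMD read.

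Srsf7 (ENSMUSG00000024097.11, chromosome 17, 80200080 to 80207307) also had a kept intron. Intron 3 (874 nt) holds the poison exon printed above, and it was kept whole in 30%, 32.2% and 33.96% of the control reads that settle it and 36%, 48.9% and 40% of the cold reads. The groups did not overlap (49 of 152 and 44 of 102 reads), and the difference in mean share was 9.59 percentage points, with 6.48 in the X1 files alone and 14.5 in the X2 files alone. Ctrl 10 (18 of 53 reads) and cold 7 (9 of 25 reads) lay closest, with a gap smaller than the worth of a read in cold 7. As a share of all Srsf7 reads, retained intron reads did overlap, at 27.3%, 30.2% and 31.6% in the controls and 30%, 40.4% and 37.5% in the cold. The coding Srsf7-201 also has a longer last exon than Srsf7-207 and than the poison exon transcript Srsf7-203. Reads of that end alone may therefore be assigned to Srsf7-201, which limits the shares of the kept intron and of the poison exon. The poison exon was included in 7.14%, 30% and 11.4% of control and 18.8%, 29.2% and 27.8% of cold reads without the kept intron, with overlap and on 16 to 40 reads a mouse. The coding transcript Srsf7-201 had 17, 20 and 25 reads in the controls and 7, 10 and 11 in the cold (log2 fold change -0.77 ± 0.34, SE, edgeR unadjusted p = 0.0346, adjusted p = 0.670). The retained intron transcripts Srsf7-207 and Srsf7-206 had 59 and 34 reads. The gene as a whole had 46.9, 47.0 and 50.3 CPM in the controls and 41.4, 47.8 and 40.9 CPM in the cold, overlapping groups (fold 0.926, edgeR adjusted p = 0.935).

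Srsf2 (ENSMUSG00000034120.18, chromosome 11, 116849901 to 116853094) had 167, 158 and 169 CPM in the controls and 179, 214 and 125 CPM in the cold. Controls lay close together, with cold mice on both sides of them (fold 1.08, 95% interval 0.853 to 1.37, edgeR adjusted p = 0.922), and without cold 12 the log2 fold change went from 0.11 to -0.087. Srsf2-203, which keeps intron 2 (1059 nt), carried its retained intron reads, at 29.9%, 27.5% and 27.7% in the controls and 23.1%, 24.3% and 26.5% in the cold. Every cold mouse was below every control, though ctrl 6 (58 of 211 reads) and cold 16 (26 of 98 reads) lay less than the worth of a read apart. The difference in mean share was -3.75 percentage points, with -5.19 in the X1 files alone and -1.67 in the X2 files alone. Its NMD share was 17.3% in cold 16 and 2.37% to 5.76% in the other 5 mice, mainly from Srsf2-204 (43 reads) beside Srsf2-202 (11 reads). Although it keeps an intron, Srsf2-203 (1814 nt) is shorter than the coding Srsf2-201 (1899 nt), so it lacks other parts of that transcript. Reads of those parts alone may be assigned to Srsf2-201. Srsf2 overlaps Mfsd11 (134 reads) and Mettl23 (295 reads) on the opposite strand, and whether the counting used strand is not given in the sources used here.

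Srsf3 (ENSMUSG00000071172.13, chromosome 17, 29032628 to 29043373) had 179, 175 and 185 CPM in the controls and 185, 211 and 120 CPM in the cold. As for Srsf2, cold 12 was the highest and cold 16 the lowest of all (fold 0.981, 95% interval 0.770 to 1.25, edgeR adjusted p = 0.984), and without cold 16 the log2 fold change went from -0.028 to 0.17. Its poison exon, printed above, was included in 15.7%, 11.5% and 18.0% of control reads that settle it and 10.6%, 14.9% and 27.4% of cold reads. Both the highest and the lowest were cold mice (77 of 517 and 65 of 407 reads). Srsf3-201, the transcript with this exon, had 141 reads, and the retained intron transcripts Srsf3-204 and Srsf3-205 had 94 and 71.

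Tra2a (ENSMUSG00000029817.11, chromosome 6, 49243924 to 49264033) had 46.9, 39.6 and 45.0 CPM in the controls and 35.8, 41.9 and 35.8 CPM in the cold, overlapping through cold 12 (fold 0.893, 95% interval 0.670 to 1.19, edgeR adjusted p = 0.915). Its poison exon transcript Tra2a-202 was the most read one, with 136 of 252 reads, and only 43 of the 7780 ranked genes had a higher NMD share. Inclusion of the exon was 66.7%, 44.2% and 62.5% in the controls and 44.0%, 65.3% and 42.9% in the cold. Each group held mice with high and mice with low inclusion, so they overlapped fully. In the coding transcripts the groups differed in a 6-base choice at the end of an exon. Tra2a-204, with the shorter form, took 6 of 14, 19 of 29 and 10 of 18 reads in the controls and 12 of 14, 14 of 17 and 15 of 16 in the cold, and the groups did not overlap (57.4% and 87.2% pooled). How reads were assigned at so small a difference, here and at the Rbm3 acceptor, is not given in the sources used here.

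Tra2b (ENSMUSG00000022858.16, chromosome 16, 22244549 to 22266005) had 92.8, 99.3 and 101 CPM in the controls and 96.5, 94.8 and 67.7 CPM in the cold, where only cold 16 lay below the control range (fold 0.904, 95% interval 0.712 to 1.15, edgeR adjusted p = 0.906). Without cold 16 its log2 fold change went from -0.15 to -0.0018. Its poison exon was included in 6.25%, 10.7% and 6.00% of control and 8.20%, 13.5% and 17.02% of cold reads that settle it (24 of 302 and 27 of 212), and ctrl 6 lay within the cold range. The related exons of Tra2a and Tra2b were included at 55.7% and 9.92% over all mice, but the 2 values are not like measures. The coding Tra2b-204 has a longer last exon than Tra2b-206, so reads of that end alone may count as coding. In Tra2a, Tra2a-202 and Tra2a-204 have the same last exon. The coding share of Tra2b was 90.8%, 85.0% and 85.1% in the controls and 81.4%, 83.2% and 75.5% in the cold, without overlap, and the difference in mean share was -6.92 percentage points, with -7.37 in the X1 files alone and -3.93 in the X2 files alone. Tra2b-206 (42 reads) was its main NMD transcript, and Tra2b-208 (27 reads), which keeps introns 5 and 6, its main retained intron transcript.

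**Figure D3:**
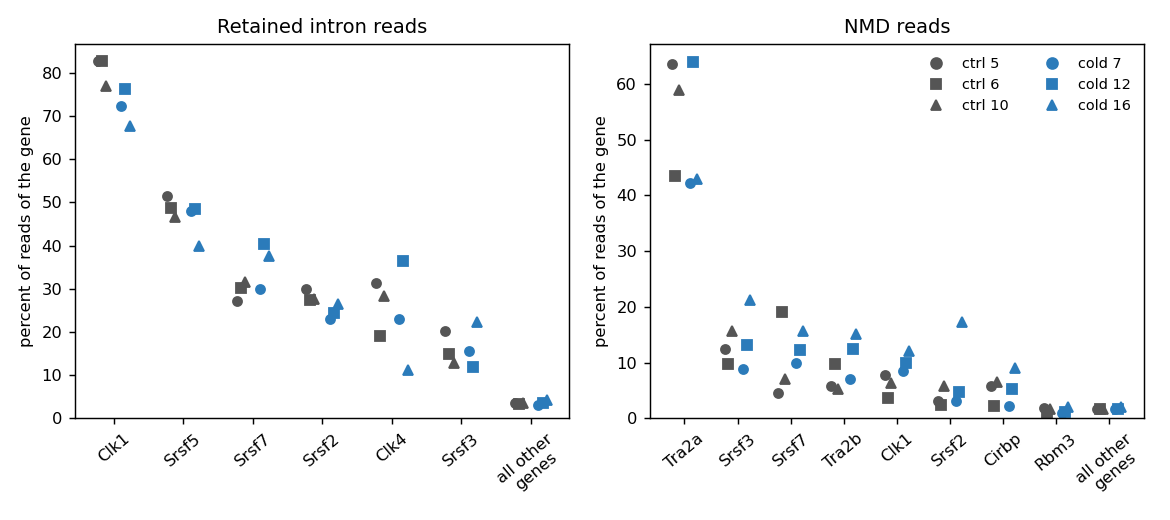
Retained intron reads (left) and NMD reads (right) as a percent of the reads of a gene, each symbol 1 mouse. Clk1 and Srsf2 retained intron shares and Clk1 NMD shares do not overlap between groups, and all other genes together stay between 3.22% and 4.36% for retained introns.

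Over the group, 27 class shares with at least 10 reads were compared between the mice, and 4 did not overlap between groups. For retained introns these were 2 of 9, Clk1 and Srsf2 both with the cold mice below (8.78% of 2038 genes did not overlap by the same measure, 3.63% with cold below and 5.15% with cold above). For NMD it was 1 of 8, Clk1 with the cold mice above (9.11% of 1010 genes, 4.75% with cold above), and for coding 1 of 10, Tra2b (7.61% of 5335 genes). With 3 against 3 mice the exact two-sided permutation p cannot go below 0.1, which all 4 reached, and the Benjamini-Hochberg value over the 27 was 0.675. Of the 12 splicing choices compared within genes, 3 did not overlap, those of Clk1 introns 3 and 4, Srsf7 intron 3 and the Tra2a exon end (adjusted permutation p = 0.4). Such choices were not counted over all genes and were picked with earlier results of these data known, so their count is a description. The Clk1 choice also reuses reads of the Clk1 retained intron share. The retained intron and NMD shares of Clk1 are parts of the same total, so they are not independent. The separations of Clk1 NMD, Srsf2 retained intron and Srsf7 intron 3 shares each rested on a gap of less than 1 read.

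Tests of usage across the whole table called none of the genes. For transcript usage, 8 of the 10 genes had at least 2 transcripts to test and 0 passed, as did 0 of all 2624 genes tested (0%, edgeR diffSpliceDGE with Simes p). At an unadjusted Simes p under 0.05 it was 0 of the 8, against 0.953% of all genes. The gene-wise F test of edgeR called 0 of the 8 and 0.0381% of all genes. It gave Srsf7 an unadjusted p of 0.0436 (adjusted p = 0.983), and 4.08% of all genes lay under 0.05. Limma gave Srsf7 0.0341 (adjusted p = 0.956), with 3.58% of all genes under 0.05. For class usage, 20 classes of 8 genes were tested and 0 passed, again as for all 2585 gene classes tested (0%). At an unadjusted p under 0.05 edgeR gave 0 of the 20 (1.12% over all) and limma 2, both of Clk1 (3.64% over all). With only 0.953% and 1.12% under 0.05 over the whole table, the edgeR counts of 0 say little about these genes.

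Of the 79 transcripts with a read, 30 passed the filter and 0 were called, against 47 of 12325 over all genes (0.381%). An unadjusted p under 0.05 was found for 2 of the 30, Clk1-204 and Srsf7-201 (6.87% over all). Of the retained intron transcripts 11 were tested, 9 with a negative and 2 with a positive log2 fold change, and their median was -0.19. Over all 683 tested retained intron transcripts the median was 0.13, and 36.7% were negative. The 11 are not independent, since Clk1, Srsf5 and Srsf3 each gave more than 1. For Clk1 and Srsf5 the log2 fold change of the whole gene was also negative (-0.23 and -0.17), so the count does not separate intron keeping from gene level. The 17 coding transcripts were divided into 10 positive and 7 negative.

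**Figure D4:**
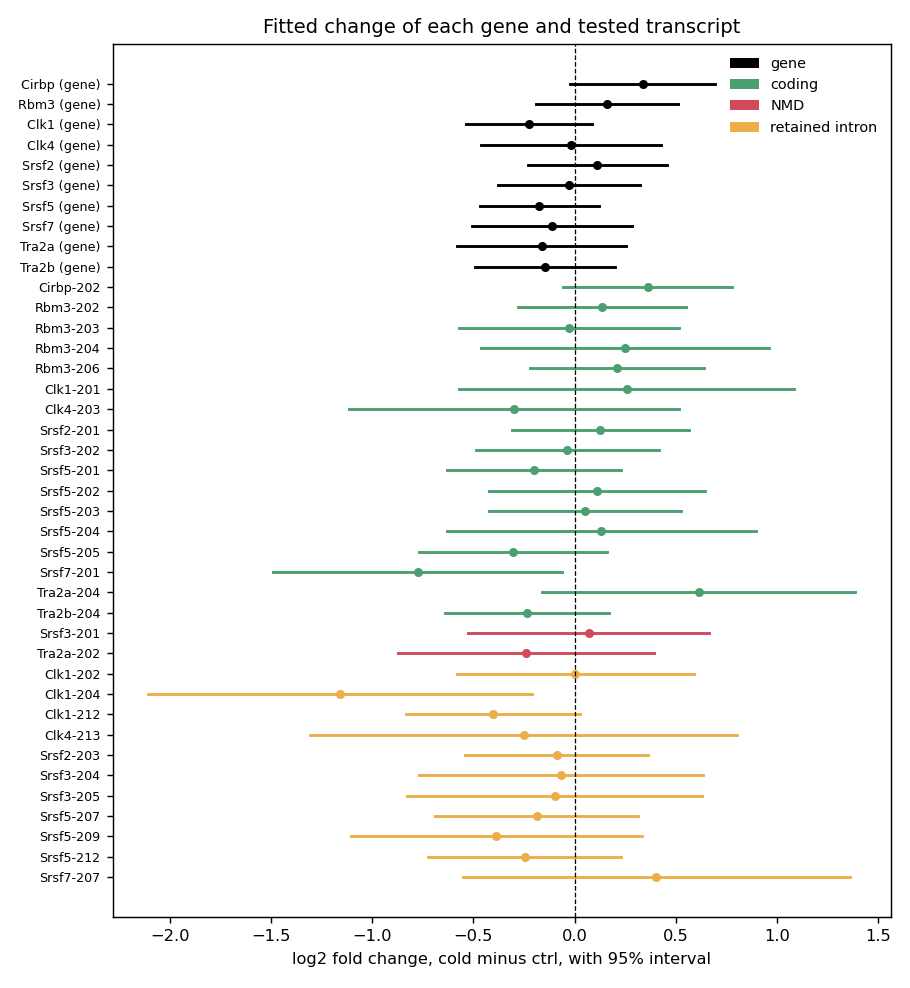
Fitted log2 fold change, cold minus ctrl, with its 95% interval (edgeR) for the 10 genes and the 30 tested transcripts, coloured by class. All gene intervals cross 0, and those of Clk1-204 and Srsf7-201 are the 2 transcript intervals that do not.

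Summed over the 10 genes, retained intron reads made up 29.7%, 26.6% and 27.1% in the controls and 22.3%, 25.9% and 23.1% in the cold, without overlap. All other genes together had 3.55%, 3.35% and 3.60% in the controls and 3.22%, 3.53% and 4.36% in the cold, which overlapped. Without Clk1 the groups of the remaining 9 genes overlapped (20.8% to 24.4% and 18.4% to 21.5%), and without Srsf5 they did not. With each gene weighted equally the difference in mean share was -1.39 percentage points instead of -4.02. Summed NMD shares overlapped, at means of 5.57% and 6.63%, and without cold 16 the difference went from 1.06 to -0.23 percentage points. These sums are a description with no test.

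**Figure D5:**
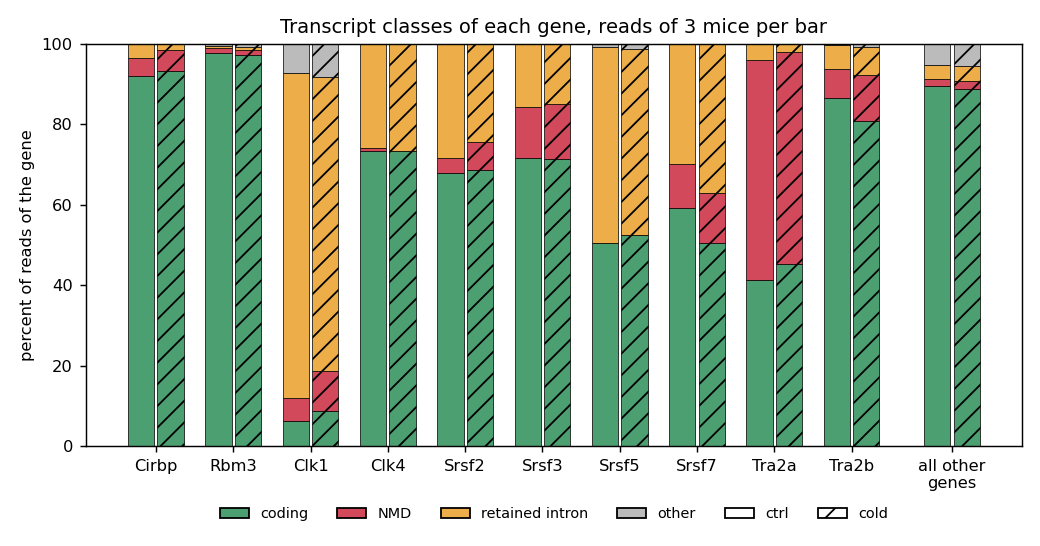
Share of reads in each transcript class for the 10 genes and all other genes, with the reads of 3 mice pooled per bar (plain ctrl, hatched cold). Clk1 is mostly retained intron, Tra2a mostly NMD, and Rbm3 and Cirbp mostly coding in both groups.

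Within the tissue the transcript makeup of the group was uneven. Of the 7780 ranked genes, the top 5% by retained intron share held 3 of the 10 (Clk1, Srsf5 and Srsf7), and the top 5% by NMD share held 1 (Tra2a). All 10 were above the median gene for retained introns (0.123%). For NMD the median was 0%, since 21.8% of the genes had any NMD read, and 9 of the 10, all but Srsf5, had at least 1. Genes with no annotated transcript of a class were ranked too, and their share can only be 0%. Other genes with an annotated retained intron transcript had 6.37% retained intron reads together, beside 26.1% for the 10. In the 5 related lists named below, the highest gene of each had 5.68% to 56.7% retained intron reads. For NMD these were 19.2% to 67.3%. List medians ran from 0% to 17.2% and from 0% to 7.74%, so high shares also occurred outside the 10. Per kilobase of mean transcript length, the level over the 6 mice was highest for Rbm3 (241 ± 48.8 CPM per kb, SD, n = 6) and Srsf5 (169 ± 24.2). Srsf2 (92.8), Cirbp (74.8) and Srsf3 (65.2) followed with overlapping ranges. Clk1 (34.8) and Tra2b (29.1) overlapped each other, and Srsf7 (23.2), Tra2a (20.4) and Clk4 (18.7) had the lowest means, also with overlap. Tra2b in cold 16 (21.4) lay within the ranges of Srsf7, Tra2a and Clk4. This order depends on the scaling by length, which reads of long molecules may not need. Without it, mean CPM was higher for Srsf5 (361) than for Rbm3 (309), and higher for Clk1 (123) than for Cirbp (95.7).

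Of 75 genes in 5 lists (other SR proteins, other SR protein kinases, SR-related splicing factors, hnRNP and related proteins, and NMD and exon junction complex genes), 72 were tested and 0 were called in either direction, with 5 at an unadjusted p under 0.05. That share of the 72 is no higher than the 8.43% of all tested genes, so the values that follow are a description. Higher values were seen for the SR-like Srsf10 (49.4 ± 1.39 and 65.3 ± 5.19 CPM, SD, n = 3, edgeR adjusted p = 0.478), Srrm1 (89.3 and 115 CPM) and Luc7l (27.9 and 37.7 CPM). A lower value was seen for Hnrnpl, a regulator of exon choice (303 ± 20.4 and 236 ± 7.63 CPM, SD, n = 3, edgeR adjusted p = 0.414). Of the other genes in these lists, Srsf6, Clk3, Dyrk1a, Smg9 and Magoh, had unadjusted p above 0.05. Summed levels overlapped between groups in 3 of the 5 lists, among them the NMD and exon junction genes (572 to 595 CPM in controls and 528 to 618 CPM in the cold). For the SR-related splicing factors the ranges all but met, at 2990 to 3038 CPM in controls and 2680 to 2989.8 CPM in the cold, less than 1 read apart. Of these 20 genes, 15 had a negative and 5 a positive log2 fold change. The hnRNP and related proteins lay lower in every cold mouse, at 4238 to 4321 CPM in controls and 3803 to 4138 CPM in the cold, with 13 genes in each direction. These sums were not tested.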

How the data were processed

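Per the labels' protocols, poly-A RNA (100 ng) was made into direct cDNA libraries. The authors deposited raw read counts per transcript, 2 files a mouse (X1 and X2), from reads aligned with minimap2 to GRCm38 per the submitters' processing notes. The sources used here do not give the counting tool, strand use, handling of reads that match several transcripts or what separates X1 from X2. Their counts differed by about sampling noise (chi-square per degree of freedom 1.02 to 1.06), so they were summed and counted as 1 sample. Of 61729 transcripts, 61538 matched GENCODE M21 (GRCm38). The unmatched 191 held 0.139% to 0.165% of reads. Reads that do not span an exon or intron cannot show it, so class shares depend on the unknown assignment.

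Gene and transcript counts were tested with edgeR 4.0.16 (R 4.3.3; quasi-likelihood, TMM, filterByExpr with minimum count 10), usage with diffSpliceDGE, all with Benjamini-Hochberg adjustment at 0.05. DESeq2 1.42.0, limma 3.58.1, other filters, RLE scaling, each file alone and leaving out each mouse were alternatives. Shares were compared by exact permutation; intervals are exact binomial, for counting error only. The tests were checked on simulated data. Members, lists, tests and splicing choices were chosen with earlier results of these data known. Named are all members, their most read transcript, their NMD and retained intron transcripts with at least 10 reads, and from each pathway list the 2 genes with the smallest p, of which 1 is not reported here.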

Additional observations from a re-analysis of the deposited data

How the results depend on the processing

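In no alternative was a member called at the gene, transcript, usage or class level. The number of genes called over the whole table was 64 and moved to 371 without the filter on low counts and to 38 in the X2 files alone, and it ranged from 35 (without cold 12) to 199 (without cold 7) when 1 mouse was left out, with 106 without ctrl 5. The cause was not tested. Of 130 alternative log2 fold changes of member genes, 120 kept their sign, and the smallest adjusted p was 0.563. The sign of near-zero values turned for Rbm3 without cold 7 (-0.076) and Srsf2 without cold 12 (-0.087). Clk4 turned in the X2 files (0.33) and without ctrl 10 (0.12), cold 7 (0.0078) or cold 16 (0.055). Srsf3 turned in the X2 files (0.0076) and without cold 16 (0.17), and in the X2 files so did Srsf7 (0.17) and Tra2a (0.10). With 1 mouse left out, the ranges were -0.076 to 0.32 for Rbm3, -0.15 to 0.12 for Clk4, -0.087 to 0.30 for Srsf2 and -0.22 to 0.17 for Srsf3.

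The summed retained intron difference of -4.02 percentage points moved to -1.39 with members weighted equally, and ranged from -5.08 to -3.06 when 1 mouse was left out. No paired analysis was possible because the groups share no mouse numbers. With 240 to 283 reads for Clk4, Srsf7 and Tra2a over the 6 mice, depth limits their shares most.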
